A study of Mus musculus with 6 samples.

Results

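The 10 genes described here encode the ligands of the chemokine receptor CXCR3, 2 other CXC chemokines and 5 CC chemokines. They were taken by their symbols in the annotation of the array: Cxcl9, Cxcl10, Cxcl11, Cxcl12, Cxcl16, Ccl2, Ccl5, Ccl7, Ccl8 and Ccl20. Each had 1 probeset, and all 10 were among the 15145 genes tested, out of 19288 with a single-gene probeset. RNA was measured on 6 Affymetrix arrays of cultured mouse embryonic fibroblasts, 3 with the hairpin construct shARF and 3 with the construct shSCR. A short hairpin RNA lowers the messenger RNA that it matches, and ARF is a tumour suppressor protein of the Cdkn2a locus. Both groups share the background that the labels write as dp53R in the series title and Ras in the sample titles, and both were grown in serum-containing medium. The labels name no promoter for the hairpins, do not say whether the lines are clonal, and do not say whether the 3 labelled biological replicates came from separate cultures or animals, so p-values measure the spread between these samples. The values are RMA signals on a linear scale, and differences are shARF minus shSCR on the log2 scale.

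Chemokines are small secreted proteins that draw leukocytes along a gradient, and each binds one or a few G protein-coupled receptors. CXCL9, CXCL10 and CXCL11 bind CXCR3, the receptor of activated T cells and natural killer cells, and their genes are known targets of interferon. The CC chemokines CCL2, CCL7 and CCL8 draw monocytes and other leukocytes, CCL5 draws T cells and monocytes, and CCL20 binds CCR6. CXCL12, the ligand of CXCR4 and of the scavenging receptor ACKR3, is made by stromal cells without an inflammatory stimulus. CXCL16 is the ligand of CXCR6. Fibroblasts are a known source of most of these proteins.

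The array medians were 41.97 to 42.86 in shARF and 42.3 to 42.5 in shSCR, and arrays correlated at 0.995 to 0.997 within a group and 0.992 to 0.994 between groups across tested probesets. The target Cdkn2a gave 285 ± 30.7 in shARF and 530 ± 12.2 in shSCR (SD, n = 3 each). Of all 15145 genes, 246 rose and 361 fell in shARF at an adjusted p under 0.05 (limma), or 304 and 287 when each array was centred on its median. All 10 fibroblast markers (Col1a1, Col1a2, Col3a1, Pdgfra, Pdgfrb, Thy1, Vim, Fn1, Dcn and S100a4) were above the detection level, with summed signals of 23975 to 24670 in shARF and 22188 to 23835 in shSCR, and 0 passed limma's test. Without adjustment, 2 were higher and 2 lower at p under 0.05 in limma, beside 22.2% of all genes in either direction. SAM called 1 higher and 1 lower, beside 6.58% in either direction. Dcn and Thy1 had the largest differences among them, at 0.71 and -0.38 (limma, adjusted p = 0.0625 and 0.0874).

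Of the 10 chemokine genes, 4 rose in shARF and 0 fell. Cxcl10 rose 4.47-fold and Ccl20 1.47-fold. Ccl8 was near background in shSCR and Cxcl9 in both groups. Their shARF signals averaged 1.72 and 1.07 times the 95th percentile of olfactory and vomeronasal receptor probesets in shSCR, with no interval computed. For Cxcl9, 2 of 3 shARF arrays passed that percentile of their own array. The background of the same test was 1.62% of genes higher and 2.38% lower, or 4.01% in either direction. SAM, the test of the study's design text, called 5 higher and 0 lower, the additional gene being Ccl5, against 2.67% higher and 3.92% lower over all genes, or 6.58% in either direction. At an unadjusted p under 0.05 in limma, 5 were higher and 1 lower, against 22.2% of genes in either direction. The median difference of the 10 was 0.36, beside -0.01 over all tested genes, and 6 of the 10 differences were positive. The 3 shARF and 3 shSCR arrays did not overlap for 8 of the 10, with 5 higher in shARF (background 12%) and 3 lower (background 16.6%, and 28.6% in either direction). The genes were chosen with earlier results known, so the counts describe them and are not independent evidence.

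**Figure D1:**
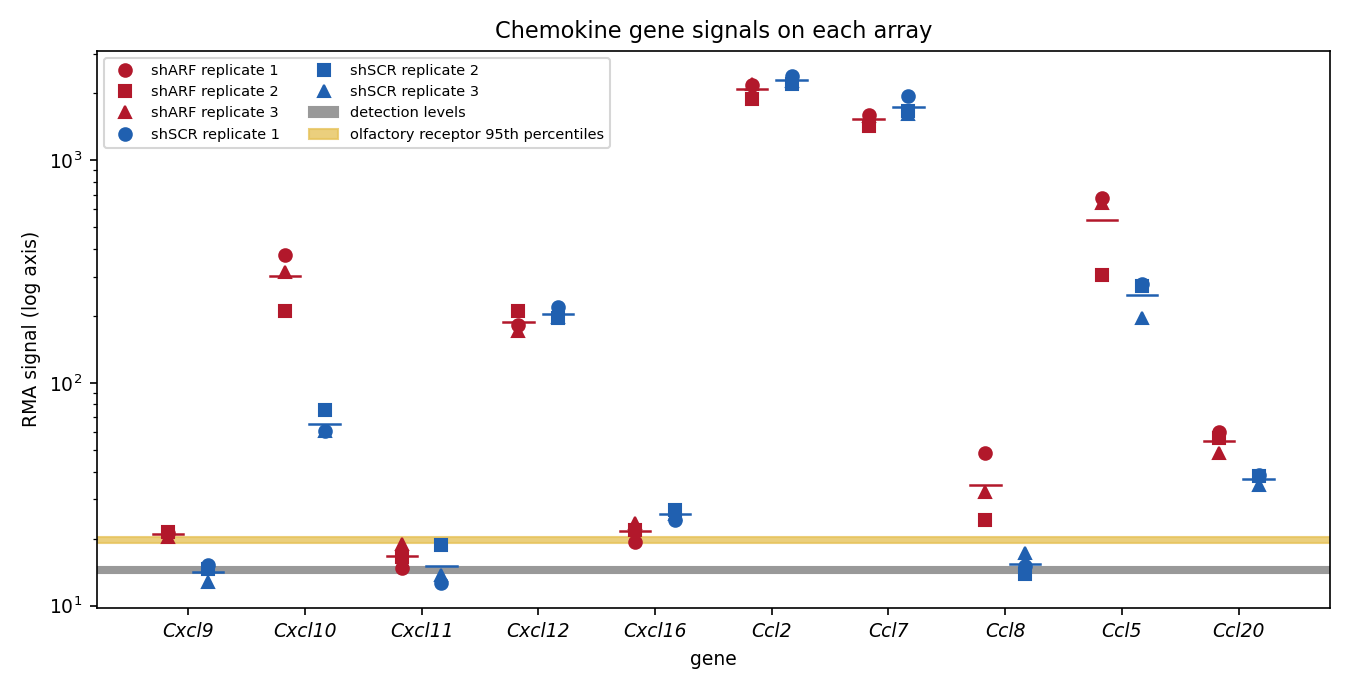
RMA signal (log axis) of each of the 10 chemokine genes on each array, with shARF arrays left and shSCR arrays right for each gene, symbols for replicates and short lines for group means. The grey band spans the detection levels of the arrays and the yellow band the 95th percentiles of olfactory and vomeronasal receptor probesets. Cxcl10 lies at 209 to 376 in shARF and 60.6 to 75.6 in shSCR, and Cxcl9, Cxcl11 and Cxcl16 lie close to the bands in both groups.

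How far each gene stood above background differed widely. The detection level, the 25th percentile of an array, was 14.2 to 14.9 in shARF and 14.1 to 14.2 in shSCR. A stricter mark, the 95th percentile of 898 probesets of olfactory and vomeronasal receptors, genes that fibroblasts are not known to use, was 19.2 to 20.4 in shARF and 19.1 to 19.9 in shSCR. Under 2 times the mean detection level in both groups lay 3 genes, Cxcl9, Cxcl11 and Cxcl16, which are therefore called near background here. Ccl8 lay near background in shSCR alone, at 2.44 times the mean detection level in shARF and 1.08 times in shSCR. Ccl20 stood at 3.83 times that level in shARF and 2.60 times in shSCR. The brightest probesets were those of Ccl2, at 145 times the level in shARF and 160 times in shSCR, and Ccl7, at 107 and 121 times.

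The promoters of the 4 genes that rose are shown because these genes share a direction, and because interferon and NF-κB act on several chemokine genes through short promoter elements. RefSeq's promoter table (GRCm38.p6) held 5 of the 10 genes, Cxcl9, Cxcl10, Cxcl12, Ccl8 and Ccl20. Each window runs from 250 bases before the gene's start to 50 bases after it, 5′ to 3′ on the gene's strand, with matches in capitals. The windows are chr5:92348840-92349139 (minus strand) for Cxcl10, chr5:92328030-92328329 (minus strand) for Cxcl9, chr11:82114935-82115234 (plus strand) for Ccl8 and chr1:83116516-83116815 (plus strand) for Ccl20.
Cxcl10: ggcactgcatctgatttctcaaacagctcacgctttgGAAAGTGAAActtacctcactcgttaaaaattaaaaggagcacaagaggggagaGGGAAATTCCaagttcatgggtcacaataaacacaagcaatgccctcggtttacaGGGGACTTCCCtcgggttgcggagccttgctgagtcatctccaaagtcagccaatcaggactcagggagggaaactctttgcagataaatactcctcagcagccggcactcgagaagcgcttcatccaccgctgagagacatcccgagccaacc
Cxcl9: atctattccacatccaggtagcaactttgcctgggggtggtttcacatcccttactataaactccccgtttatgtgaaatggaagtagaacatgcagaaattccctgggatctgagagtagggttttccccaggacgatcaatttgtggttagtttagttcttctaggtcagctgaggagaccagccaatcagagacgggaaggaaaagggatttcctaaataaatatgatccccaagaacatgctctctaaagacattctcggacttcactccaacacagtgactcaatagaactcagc
Ccl8: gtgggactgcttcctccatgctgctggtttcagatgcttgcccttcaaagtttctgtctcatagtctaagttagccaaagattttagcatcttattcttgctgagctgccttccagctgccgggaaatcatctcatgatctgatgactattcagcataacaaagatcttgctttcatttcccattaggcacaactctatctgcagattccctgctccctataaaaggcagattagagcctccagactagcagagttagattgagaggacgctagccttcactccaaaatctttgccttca
Ccl20: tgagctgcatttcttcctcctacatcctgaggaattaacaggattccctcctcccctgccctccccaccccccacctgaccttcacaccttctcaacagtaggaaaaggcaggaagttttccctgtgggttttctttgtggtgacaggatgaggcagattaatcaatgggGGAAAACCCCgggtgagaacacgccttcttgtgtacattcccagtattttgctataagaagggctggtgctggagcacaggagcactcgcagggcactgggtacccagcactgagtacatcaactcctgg

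Both strands were searched for GAAA, any 2 bases and GAAA again, the core of the interferon-stimulated response element, for TTCNNNGAA, the element bound by STAT dimers, and for the NF-κB consensus. In Cxcl10 the run GAAAGTGAAA, starting 213 bases before the gene's start, matched the interferon core, which 3.44% of 32851 promoters in the table hold. The runs GGGAAATTCC, starting 159 bases before the start, and GGGGACTTCCC, starting 104 bases before it, matched the NF-κB consensus, found in 8.46% of promoters. The longer run holds overlapping matches, on both strands. In Ccl20 the run GGAAAACCCC, starting 80 bases before the start, matched the NF-κB consensus on the opposite strand. The windows of Cxcl9, Ccl8 and Cxcl12 held no match to these letters, and TTCNNNGAA, found in 8.3% of promoters, was in none of the 5. A match is a description of letters, and binding was not measured.

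Among the CXCR3 ligands, Cxcl10 had the largest difference of the 10 genes. Its signal was 376, 209 and 316 on the 3 shARF arrays, against 60.6, 75.6 and 60.6 on the shSCR arrays. The lowest shARF array lay 2.77 times above the highest shSCR array. The mean was 300.3 ± 84.5 in shARF and 65.6 ± 8.66 in shSCR (SD, n = 3 each), a difference of 2.16 ± 0.209 (SE; limma, adjusted p = 0.00459). The 95% interval of the difference was 1.67 to 2.65. The call held without each of the 6 arrays in turn, with adjusted p in limma of 0.00519 to 0.0304.

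Cxcl9, which encodes a CXCR3 ligand induced mainly by interferon gamma, lay near background. Its signal was 21.1, 21.4 and 20.3 on the shARF arrays, against 15.2, 14.7 and 12.7 on the shSCR arrays. The groups did not overlap, and the shARF values lay at the olfactory receptor mark, above it on 2 of 3 arrays, while 0 of 3 shSCR arrays passed it and 2 of 3 passed the detection level. The difference was 0.56 ± 0.081 (SE; limma, adjusted p = 0.0154). The call was lost without shARF replicate 1 (limma, adjusted p = 0.0558) or shARF replicate 2 (0.0540). With values offset by 16 before the log, which shrinks differences of dim probesets, the difference was 0.29 (limma, adjusted p = 0.0184). The shARF signal of Cxcl9 averaged 1.07 times the olfactory receptor mark of the shSCR arrays, with no interval computed.

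Cxcl11 encodes the third CXCR3 ligand, and the RefSeq table of the C57BL/6J genome lists the locus as a transcribed pseudogene. It gave 14.7, 16.5 and 19.0 in shARF and 12.7, 18.6 and 13.7 in shSCR. The groups overlapped, and no array passed the olfactory receptor mark. The difference was 0.17 ± 0.157 (SE; limma, adjusted p = 0.582), with a 95% interval of -0.20 to 0.54, so no change was detectable at this signal.

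Gene order was read among protein-coding genes only, so Cxcl11, a transcribed pseudogene on chromosome 5 of the RefSeq table, was not placed. The order is that of start coordinates, in which Sdad1, Cxcl9, Art3, Cxcl10 and Nup54 follow each other. Art3 is an ADP-ribosyltransferase gene. Gene ends were not compared, so whether these genes overlap was not read. These neighbours were picked for position. Art3 was above the detection level on 0 of 6 arrays and was not tested. The others did not pass: Sdad1 gave 447 ± 5.2 in shARF and 496 ± 27.2 in shSCR (SD, n = 3 each; limma, adjusted p = 0.242), and Nup54, a nuclear pore gene, gave 400.3 ± 31.0 in shARF and 430 ± 12.2 in shSCR (adjusted p = 0.445).

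The CC chemokine genes of the chromosome 11 cluster did not move alike. Among the protein-coding genes of the RefSeq table Ccl2, Ccl7, Ccl11, Ccl12, Ccl8 and Ccl1 follow each other in that order. Ccl2, which encodes the monocyte chemoattractant MCP-1, gave 2166, 1872 and 2189 in shARF and 2380, 2198 and 2270 in shSCR. The shARF arrays all lay below the shSCR arrays, but by a margin as small as 1.00-fold between the nearest arrays. The difference was -0.14 ± 0.080 (SE; limma, adjusted p = 0.365), with a 95% interval of -0.33 to 0.05. Ccl7, the gene of MCP-3, gave 1586, 1415 and 1578 in shARF and 1931, 1660 and 1613 in shSCR, again with every shARF array below the shSCR arrays. Its difference was -0.18 ± 0.089 (SE; limma, adjusted p = 0.302), with an interval of -0.39 to 0.03, and neither gene passed.

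Ccl8, which encodes MCP-2, in the mouse a ligand of CCR8, gave 48.2, 24.2 and 32.4 in shARF and 15.1, 13.9 and 17.2 in shSCR. The groups did not overlap, and the shARF arrays were spread 2.00-fold, with replicate 1 high and replicate 2 low. The difference was 1.13 ± 0.231 (SE; limma, adjusted p = 0.0470), with an interval of 0.59 to 1.67. The olfactory receptor mark was passed on 0 of 3 shSCR arrays and on all 3 shARF arrays. The shARF signal averaged 1.72 times the mark of the shSCR arrays, with no interval computed. The call was kept in limma only when shARF replicate 2 was left out (adjusted p = 0.0280) and was lost without each of the other 5 arrays (adjusted p 0.0552 to 0.134). With replicate number as a block the adjusted p in limma was 0.0504.

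Between Ccl7 and Ccl8 lie Ccl11 and Ccl12, which were not among the 10. Ccl11, the gene of the eosinophil chemokine eotaxin, gave 274, 139 and 243 in shARF and 104, 128 and 102 in shSCR. The groups did not overlap, and shARF replicate 2 lay close to the highest shSCR array. It did not pass (0.93 ± 0.242, SE; limma, adjusted p = 0.0915), whereas without shARF replicate 2 the adjusted p was 0.0143 and in SAM the q was 0.0216. Ccl12 was above the detection level on 1 shARF array and 0 shSCR arrays and was not tested.

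Ccl5, the gene of RANTES, also lies on chromosome 11, beside Ccl9 and Ccl6 among protein-coding genes. Its signal was 674, 305 and 639 in shARF, against 277, 272 and 196 in shSCR. Replicates 1 and 3 of shARF stood far above the shSCR arrays, while shARF replicate 2 lay 1.10-fold above the highest of them. The mean was 539 ± 204 in shARF and 248 ± 45.4 in shSCR (SD, n = 3 each), a difference of 1.05 ± 0.304 (SE; limma, adjusted p = 0.116), which did not pass. Without shARF replicate 2 the difference was 1.42 and passed (limma, adjusted p = 0.0199), and SAM called it with all 6 arrays (q = 0.0230). Without any other single array Ccl5 did not pass (limma, adjusted p 0.197 to 0.271), and SAM was the only 1 of 10 other settings to call it. Its neighbours Ccl9 and Ccl6, which encode CC chemokines found in rodents, differed by -0.04 and 0.06 and did not pass.

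Ccl20, whose product draws CCR6-bearing T cells and dendritic cells, gave 60.0, 56.3 and 48.2 in shARF and 38.6, 38.1 and 34.7 in shSCR. The groups did not overlap, and the lowest shARF array lay 1.25-fold above the highest shSCR array. The mean was 54.8 ± 6.04 in shARF and 37.1 ± 2.14 in shSCR (SD, n = 3 each). The difference was 0.56 ± 0.095 (SE; limma, adjusted p = 0.0266), with an interval of 0.34 to 0.78. The call was kept without shARF replicate 3 (adjusted p = 0.0253 in limma) and lost without each of the other 5 arrays (adjusted p 0.0712 to 0.102), with the difference at 0.49 to 0.65 in all 6 cases.

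The remaining CXC chemokine genes, Cxcl12 and Cxcl16, did not pass. Cxcl12 gave 181, 209 and 170.2 in shARF and 219, 195 and 198 in shSCR, and the groups overlapped. The difference was -0.13 ± 0.093 (SE; limma, adjusted p = 0.469), with an interval of -0.35 to 0.09. Cxcl16, which encodes a membrane-bound chemokine that ADAM10 can shed, gave 19.4, 21.8 and 23.4 in shARF and 24.3, 27.0 and 25.9 in shSCR. Every shARF array lay below the shSCR arrays, near background, and the difference was -0.26 ± 0.086 (SE; limma, adjusted p = 0.152; unadjusted p = 0.0183), with an interval of -0.46 to -0.06.

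**Figure D2:**
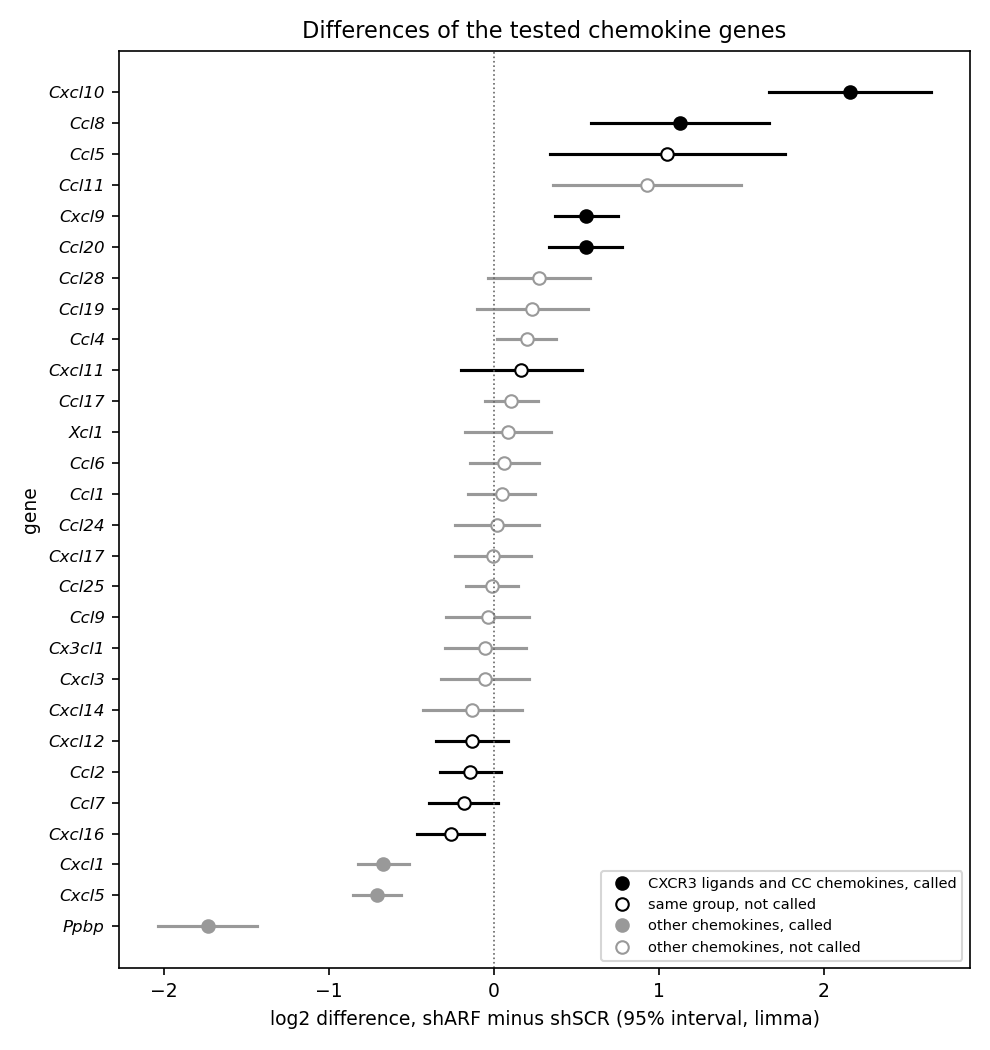
Log2 difference, shARF minus shSCR, with its 95% interval from limma for the 28 tested chemokine genes, sorted by size. Black points are the 10 genes described and grey points the 18 other chemokine genes, filled where the adjusted p was under 0.05. Cxcl10 lies at 2.16 and Ppbp at -1.73.

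Within the shARF group the rank of the arrays differed from gene to gene. Replicate 2 held the lowest shARF value of Cxcl10, Ccl8, Ccl5, Ccl2 and Ccl7, 5 of the 10 genes, beside 32% of all tested genes, and the highest value of Cxcl9 and Cxcl12. For Ccl5, Ccl8 and Cxcl10 the highest shARF array lay 2.21, 2.00 and 1.80 times above the lowest. Among the interferon pathway factors that rose, Irf7, which amplifies interferon production, had its highest shARF value on replicate 2, with 114, 160.2 and 92.9 in shARF and 28.2, 47.1 and 31.8 in shSCR. Irf9, the DNA-binding partner of STAT2, gave 164, 176 and 130.2 in shARF and 78.2, 96.1 and 74.96 in shSCR, again highest on replicate 2. Stat2 was highest on replicate 1 and Irf1 lowest on replicate 2. Replicates have no order, the labels name no batch, and the source of this spread was not tested.

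**Figure D3:**
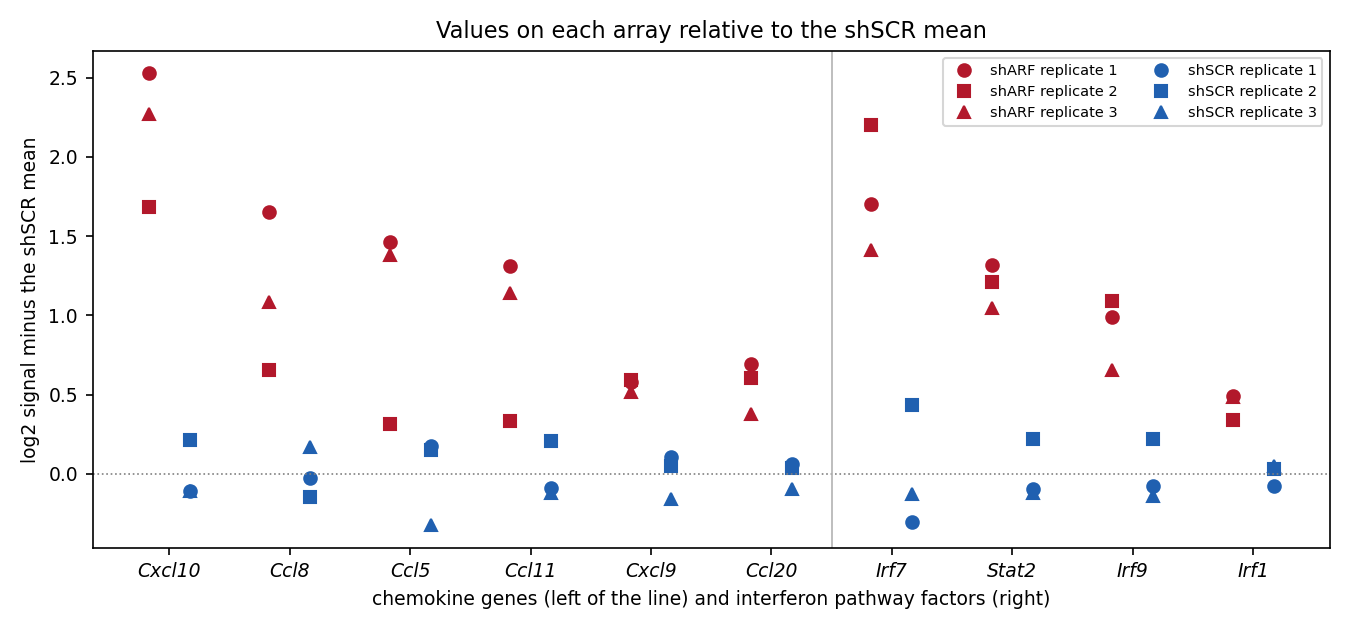
Log2 signal of each array relative to the shSCR mean of the gene, with shARF arrays left and shSCR arrays right for each gene and symbols for replicates. In shARF, replicate 2 is the lowest array for Cxcl10, Ccl8, Ccl5 and Ccl11, at 1.68, 0.66, 0.31 and 0.34, and the highest for Irf7 and Irf9, at 2.20 and 1.09.

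The genes whose profile over the 6 arrays lay nearest to that of Cxcl10 were Ifih1, Ifit1, Ifit3b, Xaf1 and Gbp7, with root mean square distances of 0.31 to 0.39 on the log2 scale, beside a median of 1.56 over all tested genes. Each profile was taken relative to the gene's shSCR mean, so the distance includes the difference between groups. For Ccl8 the nearest were Lum, Krt18, Nptx1, Nefl and Entpd1, at 0.17 to 0.21, beside a median of 0.87. Lum, which encodes a collagen-binding proteoglycan, gave 325, 183 and 238 in shARF and 115, 79.6 and 108 in shSCR. The lists nearest to Cxcl10 and to Ccl8 share no gene. This adds nothing, because the group differences of 2.16 and 1.13 already set the profiles of Cxcl10 and Ccl8 apart.

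Factors that act on chemokine promoters were read from a list of 16 genes, of which 14 were tested, with a median of -0.05. Of the 14, 4 rose and 0 fell, beside 1.62% and 2.38% of all genes. Those that rose were Irf7 (1.77 ± 0.243, SE; limma, adjusted p = 0.0131), Stat2 (1.19 ± 0.114; adjusted p = 0.00459), Irf9 (0.91 ± 0.138; adjusted p = 0.0185) and Irf1 (0.44 ± 0.070; adjusted p = 0.0220). Irf1 has another probeset, and the mean of both gave 0.32 and did not pass (limma, adjusted p = 0.0787), nor did Irf1 with replicate number as a block (0.0635). Leaving out shSCR replicate 1 or shSCR replicate 3 ended the call of Irf7 (limma, adjusted p = 0.0531 and 0.0676). Irf9 was called only without shARF replicate 3 or shSCR replicate 2 (0.0559 to 0.0779 otherwise in limma), and Irf1 only without shARF replicate 2 (0.0660 to 0.0846 otherwise). Among 8 genes of NF-κB, its inhibitors and partner factors, a grouping made after their values were seen, limma and SAM called 0. Over all genes limma called 4.01% and SAM 6.58% in either direction, so 0 of 8 lies near these shares. The differences were -0.15 to 0.19, and the unadjusted p of 1 gene was under 0.05, beside 22.2% of all genes in limma. Nfkb2, an NF-κB subunit gene, gave 167 ± 5.25 in shARF and 185 ± 4.99 in shSCR (SD, n = 3 each; limma, adjusted p = 0.221), and Tnfaip3, a feedback inhibitor and NF-κB target, differed by 0.19 (adjusted p = 0.308) and Rel by -0.11 (adjusted p = 0.418).

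Of 9 chemokine receptor genes listed, 4 were tested, 1 fell and 0 rose, beside 2.38% and 1.62% of all genes. Ackr3, which scavenges CXCL12 and CXCL11, gave 112, 125 and 123 in shARF and 167, 158 and 156 in shSCR. The groups did not overlap, and the difference was -0.42 ± 0.067 (SE; limma, adjusted p = 0.0217). The call was kept without shARF replicate 2 (limma, adjusted p = 0.0455) and lost without each of the other 5 arrays (0.0628 to 0.0850) or with replicate number as a block (0.0711). Cxcr6, Cxcr4 and Cxcr3, receptors of CXCL16, CXCL12 and the CXCR3 ligands, differed by 0.29, 0.28 and 0.13. None of them passed (adjusted p in limma 0.235, 0.265 and 0.472), and Cxcr4 and Cxcr3 lay near background in both groups. Ccr1, Ccr2, Ccr3 and Ccr6 were above the detection level on 0 of 6 arrays.

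Of 27 other chemokine genes listed, 18 were tested, with a median of 0.01. Of the 18, 3 fell and 0 rose, beside 2.38% and 1.62% of all genes. SAM called 3 lower and 1 higher, beside 3.92% and 2.67% of all genes. The 3 were the neutrophil chemokine genes Ppbp, Cxcl5 and Cxcl1, with differences of -1.73, -0.71 and -0.67 (limma, adjusted p = 0.00225, 0.0035 and 0.00523). Ppbp gave 57.7 ± 4.30 in shARF and 193 ± 31.6 in shSCR (SD, n = 3 each). Ccl4 and Ccl28 differed by 0.20 and 0.28, lay near background in both groups and did not pass. Of 12 genes for enzymes, scavengers and heparan sulfate carriers that process or bind chemokines, 10 were tested, and limma and SAM called 0. Over all genes limma called 4.01% and SAM 6.58% in either direction, and 22.2% had an unadjusted p under 0.05 in limma. The unadjusted p was under 0.05 for 1 gene, Mmp2, whose protease cleaves CCL7 and CXCL12, at 396 ± 11.4 in shARF and 321 ± 31.2 in shSCR (SD, n = 3 each; limma, adjusted p = 0.0987). Mmp14 and Sdc4 differed by 0.15 and -0.15 and did not pass.

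Leukocyte and other cell markers bear on these genes because macrophages also make them, and in bulk RNA fewer cells of a type and less RNA per cell cannot be told apart. Of 10 macrophage markers, 5 were tested, 1 rose and 0 fell. Over all genes, 1.62% rose and 2.38% fell in limma, the background for each marker list here. In SAM 2.67% of all genes were higher and 3.92% lower, and 22.2% had an unadjusted p under 0.05 in limma. The summed macrophage signal was 239 to 278 in shARF and 235 to 258 in shSCR. Adgre1, Csf1r, Itgam, Lyz2 and Ptprc were above the detection level on 0 of 6 arrays. The marker that rose was the leukocyte surface gene Cd53, at 54.9, 39.7 and 42.5 in shARF and 28.7, 26.0 and 31.5 in shSCR (0.66 ± 0.132, SE; limma, adjusted p = 0.0442), a call lost without each of the 6 arrays (adjusted p 0.0562 to 0.126) and with replicate number as a block (0.0559). Cd68 and Mrc1 were lower in shARF on non-overlapping arrays, as were 16.6% of all genes. Their differences were -0.36 and -0.29 and did not pass (limma, adjusted p = 0.109 and 0.0999, unadjusted p = 0.00884 and 0.00722). Mrc1 lay near background in both groups, above the detection level on 1 of 3 shARF arrays and all 3 shSCR arrays. Limma and SAM called 0 of 3 tested dendritic, 2 lymphocyte and 3 endothelial markers, and in each list the unadjusted p of 1 marker was under 0.05. With so few markers in a list, 0 calls lies near the background shares. The summed signals of these lists were 96.9 to 99.4 in shARF and 102 to 107 in shSCR for dendritic cells, 85.9 to 97.1 and 86.5 to 89.1 for lymphocytes, and 76.5 to 83.9 and 77.5 to 78.5 for endothelium. Of 5 epithelial markers, 4 were tested and 1 rose, the keratin gene Krt18, at 317, 189.6 and 244 in shARF and 136, 116 and 134 in shSCR (limma, adjusted p = 0.0370), with summed signals of 324 to 457 in shARF and 216 to 248 in shSCR. Krt8, its keratin partner, gave 91.3, 78.9 and 119 in shARF and 56.8, 49.4 and 65.2 in shSCR, without overlap, and did not pass (0.74 ± 0.164, SE; limma, adjusted p = 0.0583), while SAM called 2 of the 4 tested markers higher. Krt18 kept its call without shARF replicate 2 (adjusted p = 0.0230) and lost it without each of the other 5 arrays (highest adjusted p in limma 0.114), and the epithelial adhesion gene Cdh1 was above the detection level on 0 arrays. The part of these markers in the chemokine differences was not tested.

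**Figure D4:**
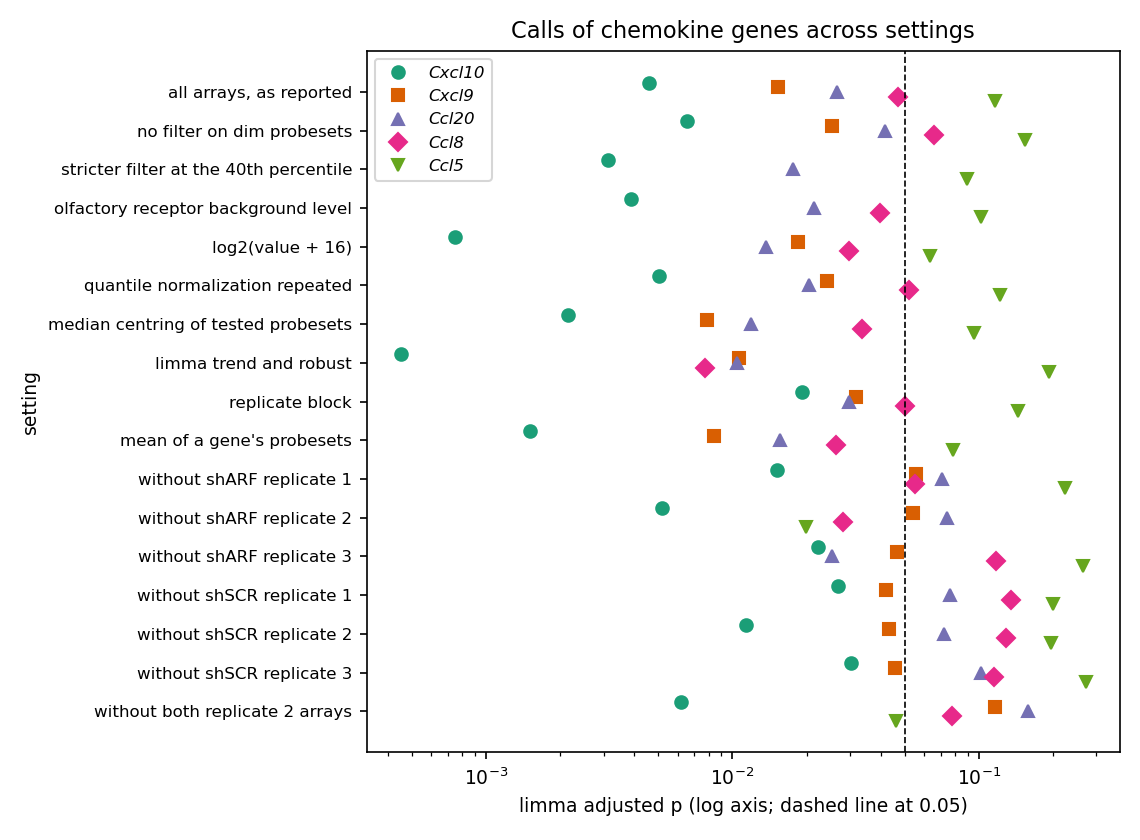
Adjusted p from limma (log axis) for Cxcl10, Cxcl9, Ccl20, Ccl8 and Ccl5 with all arrays and under each alternative, including each array left out; a gene has no point where a filter removed it. The dashed line marks 0.05. Cxcl10 lies left of the line in every setting drawn, at most at 0.0304, while Ccl8 with all 6 arrays lies at 0.0470.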

How the data were processed

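The authors deposited normalized intensities, 1 per probeset and array, made with RMA (robust multi-array average) in Affymetrix Expression Console, per the submitters' processing notes. The design text adds that core probesets were kept; the software version is not stated there. The deposited intensities, 3.14 to 12717.5 with 0 missing, are on a linear scale and were turned to log2 here. Quantile normalization hides a change common to most genes, and background left in the signal shrinks differences of dim genes. Of 26851 probesets, 21056 had 1 gene symbol, 1450 several and 4345 none in the platform annotation; 0 symbols changed against RefSeq GRCm38.p6. The build of the array design is not given, so only promoter windows carry coordinates.

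Probesets above the array's 25th percentile on at least 3 of 6 arrays (20310) entered a two-sided limma fit (version 3.58.1, R 4.3.3; lmFit and eBayes), with Benjamini-Hochberg adjustment over all of them and a threshold of 0.05; the probeset with the highest mean stood for a gene. The submitters' presence rule was not used here. The number of arrays, 3 a group, limits the precision. The fit was tested on simulated data with independent noise and planted changes larger than those of Cxcl9 and Ccl20. Smaller changes and effects common to an array were not simulated.

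Members and lists were chosen with earlier results of these data known. Genes named are the 10 members, each list's genes past the threshold with up to 3 others of smallest p, and the 5 nearest profiles to Cxcl10 and Ccl8. Ccl6, Ccl9, the genes beside Cxcl9 and Cxcl10, the markers named singly and the genes at 0 detected arrays were picked for position or after their values were seen. Alternatives were other filters, a background level from olfactory receptor probesets, an offset of 16, repeated normalization, median centring, SAM over all label permutations, limma with trend and robust settings, a replicate block, the mean of a gene's probesets and leaving out arrays. Whether probes read related chemokine genes was not tested. The labels' replicate numbers were not used as pairs: the deviations of same-numbered arrays correlated at 0.08, 0.05 and 0.00 across probesets. A listed gene that lacks a probeset of its own was not analysed here.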

Additional observations from a re-analysis of the deposited data

How the results depend on the processing

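The count of 607 genes past the threshold was 372 with no filter on dim probesets, 978 with an offset of 16, 997 in SAM, 1281 with limma's trend and robust settings, 336 with the replicate number as a block, 150 to 330 with any 1 array left out and 137 without both replicate 2 arrays. That last alternative was added after the data had been seen. The count of 4 chemokine genes was 2 at the 40th percentile filter, which left 6 of the 10 to test (6.92% of all genes were called there). It was 1 to 3 with any 1 array left out (0.99% to 2.18%) and 2 without both replicate 2 arrays (0.905%). It was 3 with no filter (1.93%), repeated quantile normalization (3.85%) and the replicate block (2.22%), each of which lost Ccl8. It was also 3 at the olfactory receptor level (5.49%), where Cxcl9 was no longer tested and Ccl8 was tested only through its shARF arrays. It was 4 with the offset (6.46%), median centring (3.9%), trend and robust settings (8.46%) and the mean of probesets (5.24%), and 5 in SAM (6.58%). Of the 3 replicate numbers, 1 correlated best with its own number when read from the shARF arrays and 2 when read from the shSCR arrays. The 8 called genes of the 4 lists, beside 4.01% of all genes, were 4 to 8 with any 1 array left out (0.99% to 2.18%). Their number was 5 without both replicate 2 arrays (0.905%) and 6 with the replicate block (2.22%). The median difference of the 10 genes, 0.36, was 0.21 at the 40th percentile filter and 0.21 at the olfactory receptor level, where dim genes were no longer tested, and 0.19 with the offset. With any 1 array left out it was 0.30 to 0.46. Cxcl10 passed in all 10 other planned settings (limma or SAM, adjusted p up to 0.0192), Ccl20 in all 10 and Cxcl9 in the 8 that tested it. Ccl8 passed in 6 of 9, missing with no filter (0.0659), repeated quantile normalization (0.0522) and the block (0.0504). Among the 6 is the olfactory receptor level, which Ccl8 passed on 3 shARF and 0 shSCR arrays. It was tested there only through the group where it is high, so that setting adds no support. Ccl5 passed in 1 of 10, SAM. Among the single genes recomputed, 0 differences changed sign under any alternative. Signal close to background limits what Cxcl9, Cxcl11, Cxcl16 and, in shSCR, Ccl8 can show. The causes of these changes were not tested beyond the number of genes and arrays entering each fit.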
